A study of Mus musculus with 2 samples.

Results

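Aminoacyl-tRNA synthetases are the enzymes that load each transfer RNA with its amino acid before translation. The set described here holds 33 synthetase genes chosen by gene symbol from the 35129 genes of the study's expression tables. All 33 were listed in both tables and averaged 1 FPKM or more, a filter that kept 12419 genes in all. FPKM is the read number scaled to the length of the gene model and to the size of the library, so levels of different genes can be compared with each other. The set divides into 20 genes of the cytosolic enzymes and 13 genes, with the suffix 2, of enzymes that work in mitochondria.

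The study sequenced RNA from primary mouse hepatocytes of the strain C57BL/6. Some cells received Ad-KLF14, an adenovirus carrying KLF14, which is a zinc finger transcription factor. Others received Ad-GFP, named for the green fluorescent protein, whereas the series' design text speaks of a vector without insert. The age and sex of the animals, the virus dose and the time after infection are not given in the sources used here. Each condition has 1 table, treated as 1 library, and pooling of cultures is not stated. There is thus no replicate error and no test between the conditions, and every difference below describes these 2 libraries and cannot be told apart from a difference between 2 cultures of the same kind.

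Cells keep separate sets of synthetases for the cytosol and for mitochondria, all of them encoded in the nucleus, because mitochondria translate their own messages with their own transfer RNAs. Class I and class II enzymes differ in the fold of the catalytic domain. In animal cells several cytosolic synthetases sit together in the multisynthetase complex on the scaffold proteins AIMP1, AIMP2 and EEF1E1. Many cytosolic synthetase genes are known targets of ATF4, the transcription factor that cells make more of when amino acids are short. In the liver the enzymes serve a heavy load of secreted plasma proteins.

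Recovered from the FPKM steps, the Ad-KLF14 library held 11151711 reads and the Ad-GFP library 11311344. Klf14 itself stood at 13164 FPKM with Ad-KLF14 and at 0.298 FPKM with Ad-GFP, as the labels say, and its reads made up 1.95% of the Ad-KLF14 total. All 8 hepatocyte markers were kept, with sums of 5018 FPKM for Ad-KLF14 and 6084 FPKM for Ad-GFP. Most of this was Alb, at 4172 FPKM with Ad-KLF14 and 5115 FPKM with Ad-GFP. Of the 8 markers 2 were higher with Ad-KLF14 and 6 lower. The urea cycle gene Cps1 stood at only 2.80 FPKM with Ad-KLF14 and 4.91 FPKM with Ad-GFP. Macrophage markers summed to 185 FPKM for Ad-KLF14 and 117 FPKM for Ad-GFP over 5 kept of 7 measured. They did not go one way: Cd68 had 160.3 FPKM with Ad-KLF14 and 71.1 FPKM with Ad-GFP, Mpeg1 had 17.1 FPKM with Ad-KLF14 and 40.1 FPKM with Ad-GFP, and Clec4f of Kupffer cells stood at 0.411 FPKM with Ad-KLF14 and 0.332 FPKM with Ad-GFP. Cholangiocyte markers summed to 234 FPKM for Ad-KLF14 and 793 FPKM for Ad-GFP over 3 kept of 6. Most of this was Spp1, at 191 FPKM with Ad-KLF14 and 681 FPKM with Ad-GFP, and Cldn4, at 40.8 and 107 FPKM. The markers not kept were near 0. Krt19 had 0.196 FPKM with Ad-KLF14 and 1.74 FPKM with Ad-GFP, Epcam had 0.392 and 0.257 FPKM, and Krt7 was listed at 0 in both. Endothelial markers, 3 kept of 6, summed to 5.07 FPKM for Ad-KLF14 and 10.02 FPKM for Ad-GFP. Of 6 stellate cell and fibroblast markers only Dcn was kept, at 2.14 FPKM for Ad-KLF14 and 2.72 FPKM for Ad-GFP, and Lrat was listed at 0 with Ad-KLF14 and at 0.0165 FPKM with Ad-GFP. The part of other cell types in the values below was not tested, and in bulk RNA fewer cells of a type cannot be told apart from less RNA per cell.

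Most synthetase transcripts, like most genes kept, differed by less than 1.5-fold between the libraries. The cytosolic genes were more often higher than lower with Ad-KLF14. On log2(FPKM + 1), Ad-KLF14 minus Ad-GFP, 15 of 20 cytosolic genes were above 0, as were 48.3% of all 12419 genes kept. The median difference of the cytosolic genes was 0.27, against −0.03 over all genes kept. The 13 mitochondrial genes were below 0 in 8 cases (background 51.7%) and had a median of −0.09. This median became 0.01 when a running median over genes of like level was removed, with Ears2 and Pars2 then above 0. Only 1 of the 33 members, the histidine enzyme gene Hars, was at least 2-fold higher, where 6.37% of all genes kept were, and only 1, the mitochondrial isoleucine enzyme gene Iars2, was at least 2-fold lower, where 8.99% were. These shares are no larger than the background. Hars did not reach 2-fold with 5 FPKM added in place of 1 (log2 difference 0.97) or with the running median removed (0.94), and Mars2 passed it with 0.1 FPKM added (1.08). At 1.5-fold, 7 members were higher (background 16.7%) and 2 lower (background 20.9%). The other 24 lay within it, as did 7742 of the 12419 genes kept. Summed over genes, the cytosolic synthetases stood at 2033 FPKM with Ad-KLF14 and 1700 FPKM with Ad-GFP, and the mitochondrial ones at 275 FPKM with Ad-KLF14 and 315 FPKM with Ad-GFP.

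**Figure D1:**
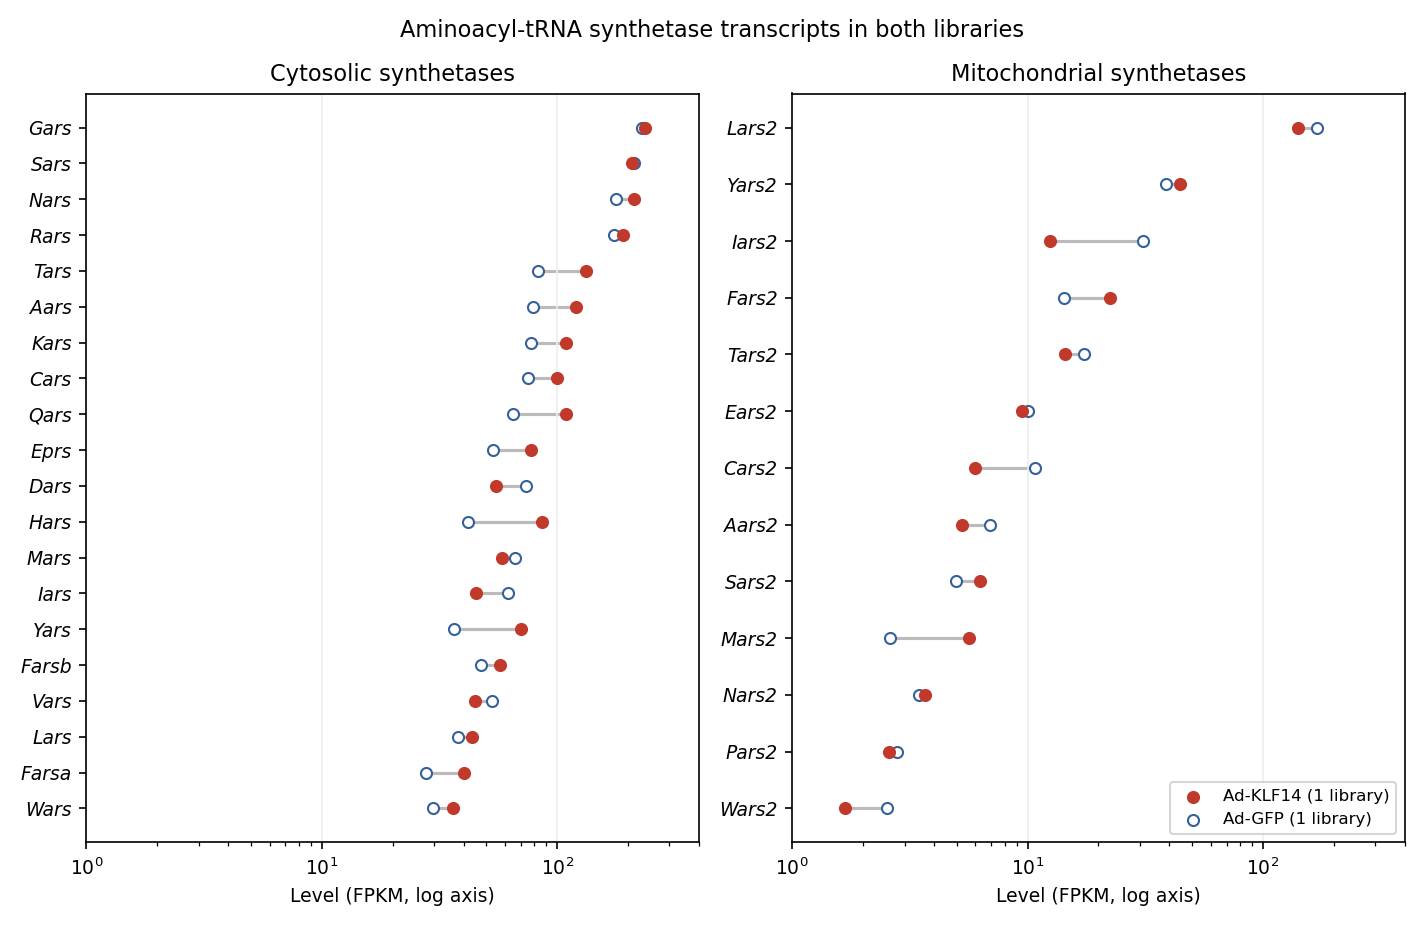
Level of each synthetase transcript in FPKM on a log axis, with 1 filled point for the Ad-KLF14 library and 1 open point for the Ad-GFP library per gene, cytosolic genes on the left and mitochondrial genes on the right. The cytosolic genes span 27.7 to 236 FPKM over both libraries, while 10 of the 13 mitochondrial genes stay below the lowest of these values in both.

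The most abundant members were the same in both libraries. The glycine enzyme gene Gars was the most abundant of the set in both, at 236 FPKM with Ad-KLF14 and 228 FPKM with Ad-GFP, followed by the genes of the asparagine, serine and arginine enzymes. Nars stood at 213 FPKM with Ad-KLF14 and 178 FPKM with Ad-GFP. Sars stood at 208 FPKM with Ad-KLF14 and 212 FPKM with Ad-GFP, and Rars at 191 FPKM with Ad-KLF14 and 175 FPKM with Ad-GFP. The lowest cytosolic genes were Wars, for tryptophan, and Farsa, the catalytic subunit for phenylalanine. Wars was at 36.2 FPKM with Ad-KLF14 and 29.6 FPKM with Ad-GFP.

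Among the cytosolic enzymes that act outside the multisynthetase complex, 10 of 12 genes were above 0 (background 48.3%), with a median log2 difference of 0.34. Hars had 86.4 FPKM with Ad-KLF14 and 41.8 FPKM with Ad-GFP. This is a ratio of 2.07, with a 95% counting interval of 1.91 to 2.24, which covers the error of counting reads and not the spread between cultures. Hars stood at percentile 94.2 of the log2 differences of all genes kept. Its reference transcripts overlap those of Hars2 over 195 bases on the opposite strand, so reads from that stretch may count for either gene if counting ignored the strand. Stretches on the opposite strand were also found between Cars and a pseudogene, Farsb and Sgpp2, Fars2 and Lyrm4, and Nars2 and an antisense transcript.

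The tyrosine enzyme gene Yars came next, at 70.2 FPKM with Ad-KLF14 and 36.4 FPKM with Ad-GFP (ratio 1.93, interval 1.80 to 2.07). The threonine enzyme gene Tars had 133 FPKM with Ad-KLF14 and 82.8 FPKM with Ad-GFP (ratio 1.60, interval 1.53 to 1.69). The alanine enzyme gene Aars had 120.2 FPKM with Ad-KLF14 and 78.7 FPKM with Ad-GFP (ratio 1.53, interval 1.47 to 1.59). A reference transcript of Exosc6, an exosome subunit gene, shares 1326 identical bases on the same strand with an Aars transcript, so reads there may have been assigned to either. Exosc6, named because of this overlap, went the other way, at 17.4 FPKM with Ad-KLF14 and 33.7 FPKM with Ad-GFP.

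The remaining genes outside the complex lay within 1.5-fold. Cars, for cysteine, stood at 100.1 FPKM with Ad-KLF14 and 75.3 FPKM with Ad-GFP (ratio 1.33, interval 1.26 to 1.41). The 2 subunits of the phenylalanine enzyme were both higher. The catalytic Farsa stood at 40.3 FPKM with Ad-KLF14 and 27.7 FPKM with Ad-GFP (ratio 1.46, interval 1.31 to 1.62). Farsb, the partner subunit, stood at 57.2 FPKM with Ad-KLF14 and 47.5 FPKM with Ad-GFP (ratio 1.20, interval 1.08 to 1.35). Farsb thus had 1.42 times the FPKM of Farsa with Ad-KLF14 and 1.72 times with Ad-GFP, although the enzyme holds equal numbers of both subunits. Wars and Nars had ratios of 1.22 and 1.20, each with an interval above 1.

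Gars and Sars did not differ beyond counting error. The ratio of Gars was 1.03 (interval 0.996 to 1.07) and that of Sars 0.979 (interval 0.939 to 1.02), so no difference was detectable in either at this depth. Gars is one of 2 genes of the set, with the lysine enzyme gene Kars, whose transcripts give both the cytosolic and the mitochondrial enzyme. The valine enzyme gene Vars was the other gene outside the complex below 0, at 44.6 FPKM with Ad-KLF14 and 52.9 FPKM with Ad-GFP (ratio 0.842, interval 0.794 to 0.893).

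Of the 8 enzymes of the multisynthetase complex 5 were above 0 (background 48.3%), with a median of 0.16. The glutamine enzyme gene Qars had the highest ratio of them, at 109 FPKM with Ad-KLF14 and 64.7 FPKM with Ad-GFP (ratio 1.69, interval 1.59 to 1.79). Eprs, a single protein for glutamate and proline, was at 77.6 FPKM with Ad-KLF14 and 53.4 FPKM with Ad-GFP (ratio 1.45, interval 1.39 to 1.52). Kars was at 109 FPKM with Ad-KLF14 and 77.4 FPKM with Ad-GFP (ratio 1.41, interval 1.33 to 1.49).

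The other enzymes of the complex lay nearer to 1 or lower. The leucine enzyme gene Lars stood at 43.6 FPKM with Ad-KLF14 and 37.8 FPKM with Ad-GFP, and the ratio of Rars was 1.09 (interval 1.04 to 1.14). Iars, for isoleucine, stood at 45.3 FPKM with Ad-KLF14 and 61.6 FPKM with Ad-GFP (ratio 0.736, interval 0.696 to 0.777). A processed pseudogene of Iars, Gm4849, matches it over 1656 bases at 96.0% identity, but it had 0.0328 FPKM with Ad-KLF14 and 0.356 FPKM with Ad-GFP. The aspartate enzyme gene Dars stood at 55.1 FPKM with Ad-KLF14 and 73.4 FPKM with Ad-GFP (ratio 0.751, interval 0.700 to 0.806). Mars, for methionine, had a ratio of 0.881 (interval 0.828 to 0.937).

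The transcripts of this single complex therefore went both ways, with a standard deviation across its 8 genes of 0.44 on the log2 scale, and the same held for its scaffold. Aimp2 was at 137 FPKM with Ad-KLF14 and 64.6 FPKM with Ad-GFP (ratio 2.12, interval 1.96 to 2.31). Aimp1 was at 99.98 FPKM with Ad-KLF14 and 81.2 FPKM with Ad-GFP (ratio 1.23, interval 1.13 to 1.34). Eef1e1 was at 37.7 FPKM with Ad-KLF14 and 46.7 FPKM with Ad-GFP (ratio 0.807, interval 0.710 to 0.917). For a split by catalytic fold, Eprs, which joins a glutamate and a proline enzyme, was counted in class I only. The 10 cytosolic class I genes then had a median of 0.24 and the 10 class II genes one of 0.37. Of these, 7 and 8 genes were above 0 (background 48.3%). Whether these subgroups differ could not be tested.

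**Figure D2:**
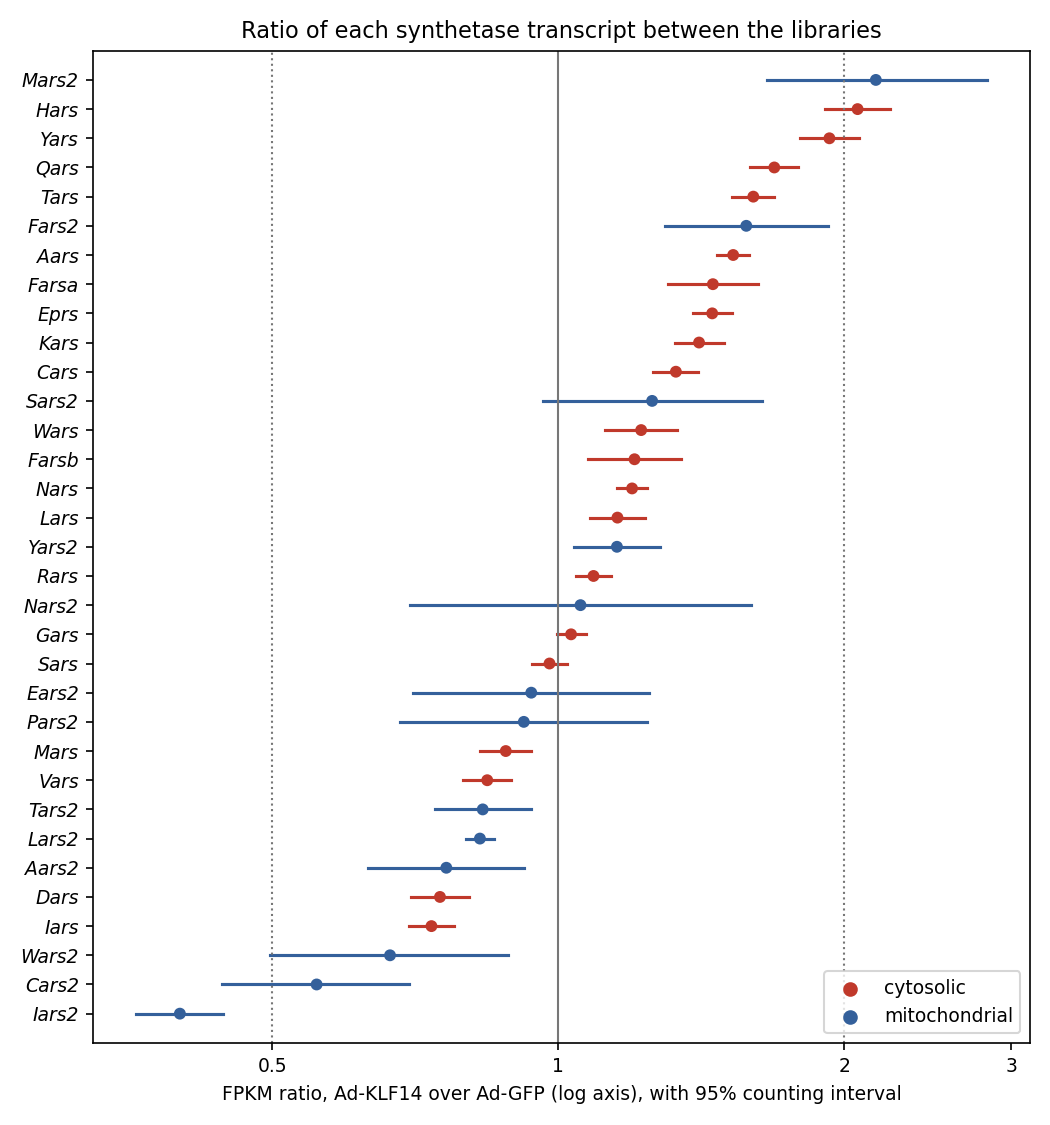
FPKM ratio of Ad-KLF14 over Ad-GFP for each of the 33 synthetase genes on a log axis, with bars for the 95% counting interval from the reads of both libraries, in red for cytosolic and blue for mitochondrial genes. Genes run from Mars2 (2.16) at the top to Iars2 (0.400) at the bottom, and the dotted lines mark 2-fold.

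Promoter windows were searched for sequence elements known to act on this gene family or to be bound by KLF factors. RefSeq tables of build GRCm38.p6 hold a window for 24 of the 33 members, 12 of each compartment. Cars, Hars, Lars, Mars, Nars, Rars, Vars, Wars and Pars2 had no window and were not searched. For the others the 250 bases before the annotated start were searched on both strands. The core of the amino acid response element bound by ATF4 and its partners, TGATGNAA, was found in Aars, Gars and Tars and in no other of these members, against 3.45% of 32851 windows of all genes. The GC box core bound by SP and KLF factors, GGGCGG, was found in 7 of 12 cytosolic and 8 of 12 mitochondrial genes, against 32.7% of all windows. The windows of all genes were not matched to the members by level or by share of G and C. That share ran from 45.2% in Farsa to 71.6% in Fars2, so the difference is read no further. A CACCC box, CCACACCC, was found only in Dars among them, against 3.20% of all windows. A match is a description of these letters, and no binding was measured.

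Shown are the 3 windows with the response element core and that of Yars, which holds 5 GC boxes, the most of the members searched. Also shown are those of the mitochondrial genes with the highest and the lowest ratio, Mars2 and Iars2. Each runs 5′ to 3′ on the strand of the gene up to the base before its annotated start, with matches to any of the 3 motifs in capitals, on either strand. They lie at chr8:111033592-111033841 on the plus strand (Aars), chr6:55037751-55038000 on the plus strand (Gars), chr15:11399659-11399908 on the minus strand (Tars), chr4:129189653-129189902 on the plus strand (Yars), chr1:55236927-55237176 on the plus strand (Mars2) and chr1:185329402-185329651 on the minus strand (Iars2). The build of the authors' alignment differs from that of these windows, which were joined to the values by gene symbol.
Aars: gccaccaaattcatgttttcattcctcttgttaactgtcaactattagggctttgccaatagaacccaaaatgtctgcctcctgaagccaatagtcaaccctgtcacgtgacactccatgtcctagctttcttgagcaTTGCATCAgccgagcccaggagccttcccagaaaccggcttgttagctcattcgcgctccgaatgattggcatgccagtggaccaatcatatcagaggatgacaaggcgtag
Gars: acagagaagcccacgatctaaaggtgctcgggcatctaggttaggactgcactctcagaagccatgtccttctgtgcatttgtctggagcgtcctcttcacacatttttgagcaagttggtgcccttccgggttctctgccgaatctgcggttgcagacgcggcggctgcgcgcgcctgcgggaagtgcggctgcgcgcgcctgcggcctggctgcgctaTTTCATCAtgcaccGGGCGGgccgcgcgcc
Tars: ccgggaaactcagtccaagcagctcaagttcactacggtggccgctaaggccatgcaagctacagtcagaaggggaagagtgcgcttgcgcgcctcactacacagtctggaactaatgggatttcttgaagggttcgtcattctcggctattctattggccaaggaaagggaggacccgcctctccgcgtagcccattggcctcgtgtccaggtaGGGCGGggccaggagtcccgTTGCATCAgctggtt
Yars: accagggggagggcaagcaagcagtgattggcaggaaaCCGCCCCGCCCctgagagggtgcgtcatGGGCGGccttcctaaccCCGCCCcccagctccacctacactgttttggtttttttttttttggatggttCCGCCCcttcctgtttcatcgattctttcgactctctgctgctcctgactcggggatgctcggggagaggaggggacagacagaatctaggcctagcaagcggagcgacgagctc
Mars2: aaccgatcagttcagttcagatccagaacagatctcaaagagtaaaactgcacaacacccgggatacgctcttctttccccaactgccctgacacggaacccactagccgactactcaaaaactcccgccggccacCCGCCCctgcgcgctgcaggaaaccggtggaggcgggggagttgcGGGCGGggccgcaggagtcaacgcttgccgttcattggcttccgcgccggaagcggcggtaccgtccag
Iars2: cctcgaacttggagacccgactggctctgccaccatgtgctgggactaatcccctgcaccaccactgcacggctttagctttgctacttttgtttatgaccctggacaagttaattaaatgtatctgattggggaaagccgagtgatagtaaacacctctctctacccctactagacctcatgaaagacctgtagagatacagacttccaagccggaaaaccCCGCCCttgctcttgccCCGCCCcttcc

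The response element core starts 112 bases upstream of the start of Aars, 30 bases upstream of that of Gars and 15 bases upstream of that of Tars, in each case on the opposite strand. These genes did not share 1 ratio. Tars and Aars stood at 1.60 and 1.53, and Gars, the most abundant member, at 1.03. Gars and Tars also hold 1 GC box each. Yars and Mars2, which hold GC boxes without that core, had ratios of 1.93 and 2.16, and Iars2, with 2 GC boxes, had a ratio of 0.400. Mars2 and Iars2 were shown because of their ratios, and the part of these elements in the levels was not tested.

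The mitochondrial synthetases were much less abundant than the cytosolic ones, with a median level of 6.26 FPKM with Ad-KLF14 and 10.1 FPKM with Ad-GFP. Their log2(FPKM + 1) differences were more spread out (standard deviation 0.55, against 0.42 for the cytosolic genes and 0.74 for all genes kept). Several mitochondrial genes rest on few reads, and the part of counting error in this spread was not tested. Lars2, for leucine, stood apart in level, at 141 FPKM with Ad-KLF14 and 170 FPKM with Ad-GFP, and had rank 5 of the set in both libraries. Its ratio was 0.827 (interval 0.800 to 0.856). Yars2, for tyrosine, was next, at 44.4 FPKM with Ad-KLF14 and 38.5 FPKM with Ad-GFP. Without Lars2 the mitochondrial sum was 134 FPKM with Ad-KLF14 and 145 FPKM with Ad-GFP.

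Iars2 differed most of all members. It had 12.4 FPKM with Ad-KLF14 and 31.0 FPKM with Ad-GFP, a 2.50-fold lower level (ratio 0.400, interval 0.359 to 0.444), from at least 490 and 1243 reads, and lay at percentile 4.98 of the log2 differences of all genes. Its reference transcripts overlap those of Rab3gap2, a Rab GTPase regulator gene on the opposite strand, over 2034 bases. Rab3gap2, named because of this overlap, had 13.9 FPKM with Ad-KLF14 and 9.29 FPKM with Ad-GFP. The labels name a library kit and do not say whether counting used the strand, and without strand the reads of the overlap cannot be assigned to 1 gene.

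Cars2 was the other mitochondrial gene at least 1.5-fold lower on log2(FPKM + 1), at 5.96 FPKM with Ad-KLF14 and 10.7 FPKM with Ad-GFP (ratio 0.557, interval 0.443 to 0.697). It overlaps Carkd, now called Naxd, over 217 bases on the opposite strand, and Carkd stood at 27.1 FPKM in both libraries. Wars2 was the least abundant member, at 1.68 FPKM with Ad-KLF14 and 2.52 FPKM with Ad-GFP (ratio 0.665, interval 0.497 to 0.886). Aars2 had 5.27 FPKM with Ad-KLF14 and 6.92 FPKM with Ad-GFP (ratio 0.763, interval 0.631 to 0.921). The ratio of Tars2 was 0.833 (interval 0.741 to 0.936).

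A pair of mitochondrial genes was at least 1.5-fold higher on that scale. Mars2, for methionine, had 5.63 FPKM with Ad-KLF14 and 2.61 FPKM with Ad-GFP, the largest ratio of the set at 2.16 (interval 1.66 to 2.83). It rests on at least 181 and 85 reads, and the added 1 FPKM keeps its log2 difference at 0.88, below 2-fold. Fars2, a single-chain phenylalanine enzyme, had 22.4 FPKM with Ad-KLF14 and 14.2 FPKM with Ad-GFP (ratio 1.58, interval 1.30 to 1.92). Yars2 had a ratio of 1.15 (interval 1.04 to 1.28).

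No difference was detectable in the other mitochondrial genes, whose intervals hold 1. Sars2 had a ratio of 1.26 (interval 0.964 to 1.64) and Nars2 one of 1.06 (interval 0.699 to 1.60). The glutamate enzyme gene Ears2 had 0.937 (interval 0.704 to 1.25) and the proline enzyme gene Pars2 0.920 (interval 0.682 to 1.24). Each rests on 49 to 130 recovered reads per library, which leaves wide intervals. The implied lengths of Ears2 and Nars2 match no reference transcript, so their reads may be too low and their intervals too wide.

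Some mitochondrial synthetase genes outside the list were measured too. Hars2 was at 12.2 FPKM with Ad-KLF14 and 9.78 FPKM with Ad-GFP. Rars2 was at 8.17 FPKM with Ad-KLF14 and 11.1 FPKM with Ad-GFP, and Vars2 at 3.30 FPKM with Ad-KLF14 and 5.13 FPKM with Ad-GFP. Hars2 was thus higher and Rars2 and Vars2 lower, none of them by 2-fold.

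Of 10 pairs of enzymes for the same amino acid, 7 differed in sign between the compartments. Most cytosolic genes were above 0 and most mitochondrial genes below 0, so opposite signs are frequent without any link within a pair. Whether pairing adds to this was not tested. For 10 amino acids the set holds 1 cytosolic and 1 mitochondrial enzyme gene. The log2 difference had the same sign in 3 of these pairs (both higher for asparagine and tyrosine, both lower for isoleucine). In 5 pairs the cytosolic gene was above 0 and the mitochondrial gene below it (alanine, cysteine, leucine, threonine, tryptophan), and in 2 it was the reverse (methionine, serine). The signs of Sars, Sars2 and Nars2 lie within counting error. Cars had 16.8 times the FPKM of Cars2 with Ad-KLF14 and 7.03 times with Ad-GFP. Aars had 22.8 times the FPKM of Aars2 with Ad-KLF14 and 11.4 times with Ad-GFP. Methionine went the other way, with Mars at 10.3 times the FPKM of Mars2 with Ad-KLF14 and 25.4 times with Ad-GFP. Leucine was the amino acid whose mitochondrial enzyme gene had the higher level in both libraries.

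**Figure D3:**
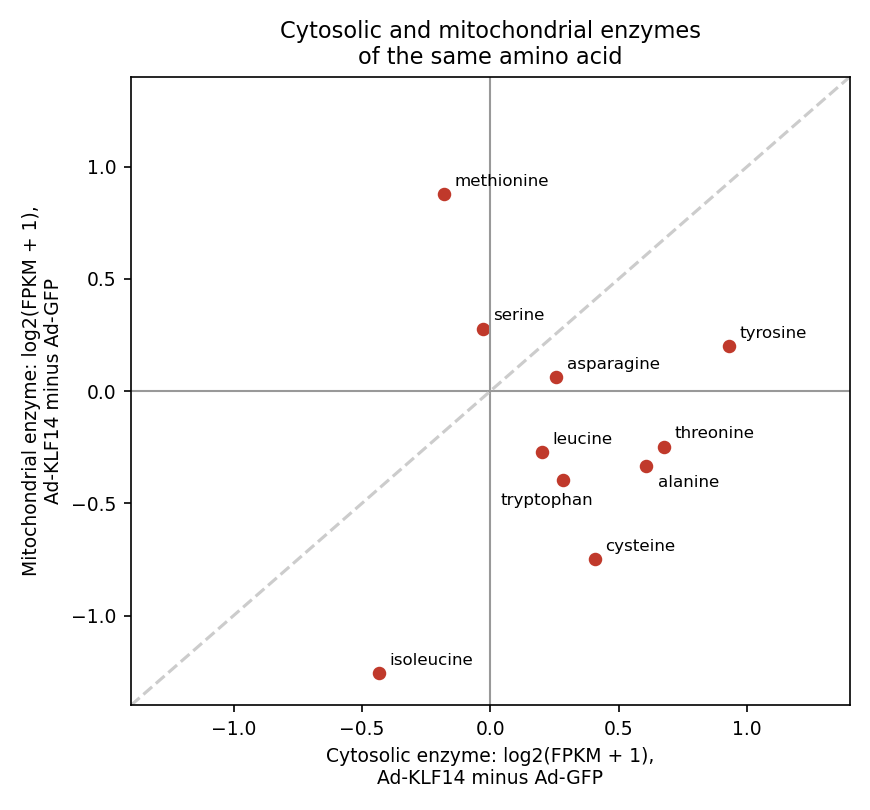
Difference in log2(FPKM + 1), Ad-KLF14 minus Ad-GFP, of the mitochondrial enzyme gene against that of the cytosolic enzyme gene for the same amino acid, with 1 point for each of 10 amino acids and a dashed line of equality. Of the points, 7 lie in quadrants of opposite sign, and isoleucine lies lowest, with −0.43 for Iars and −1.26 for Iars2.

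Other genes of the pathway are given for context. The log2 differences had a standard deviation of 0.51 over the 33 synthetases, 0.68 over scaffold and related factors, 0.63 over tRNA maturation genes and 0.81 over amino acid response genes. Of 18 scaffold and related factors kept, 8 were above 0 (background 48.3%), and 2 passed 2-fold upward (background 6.37%) and 1 downward (background 8.99%). Their median of −0.03 was that of all genes, and counts this small are read no further. Besides Aimp2, the higher one was Gatc, a subunit of the amidotransferase that makes glutaminyl-tRNA in mitochondria, at 29.6 FPKM with Ad-KLF14 and 14.2 FPKM with Ad-GFP. Its partners Qrsl1 and Pet112l had ratios of 0.988 (interval 0.754 to 1.29) and 0.759 (interval 0.639 to 0.901). Pstk, the kinase that acts on seryl-tRNA on the way to selenocysteine, was the lower one, at 3.57 FPKM with Ad-KLF14 and 13.6 FPKM with Ad-GFP.

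Of 44 genes of tRNA maturation kept, 28 were above 0 (background 48.3%), and 5 passed 2-fold upward (background 6.37%) and 2 downward (background 8.99%). Their median was 0.09. Trnt1, which adds the CCA end to which the amino acid is attached, was at 51.4 FPKM with Ad-KLF14 and 21.5 FPKM with Ad-GFP (ratio 2.39, interval 2.16 to 2.65). The modification enzyme genes Trit1 and Trmt61a had ratios of 2.93 (interval 2.55 to 3.38) and 2.77 (interval 2.48 to 3.11). Tsen34, a subunit of the tRNA splicing endonuclease, was at 21.9 FPKM with Ad-KLF14 and 67.3 FPKM with Ad-GFP (ratio 0.326, interval 0.289 to 0.366).

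ATF4 and its amino acid response genes did not go one way. Of 32 kept, 17 were above 0 (background 48.3%), and 5 passed 2-fold upward (background 6.37%) and 2 downward (background 8.99%). Their median was 0.05. Atf4 itself stood at 218 FPKM with Ad-KLF14 and 337 FPKM with Ad-GFP (ratio 0.649, interval 0.624 to 0.674). Asns, the asparagine synthetase gene, stood at 77.6 FPKM with Ad-KLF14 and 84.6 FPKM with Ad-GFP (ratio 0.918, interval 0.858 to 0.981). Ddit3, which encodes the stress factor CHOP, had a ratio of 1.49 (interval 1.30 to 1.71). The glutamine transporter gene Slc1a5 was at 24.9 FPKM with Ad-KLF14 and 5.59 FPKM with Ad-GFP, and Atf3 and Ppp1r15a had ratios of 2.99 and 2.96. Trib3, an inhibitor of ATF4, was at 20.6 FPKM with Ad-KLF14 and 58.4 FPKM with Ad-GFP. In the same 2 libraries 15 cytosolic synthetase genes were above 0 and the Atf4 transcript was lower. A transcript level is not a measure of ATF4 protein or its activity, and the part of ATF4 in synthetase levels was not tested.

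**Figure D4:**
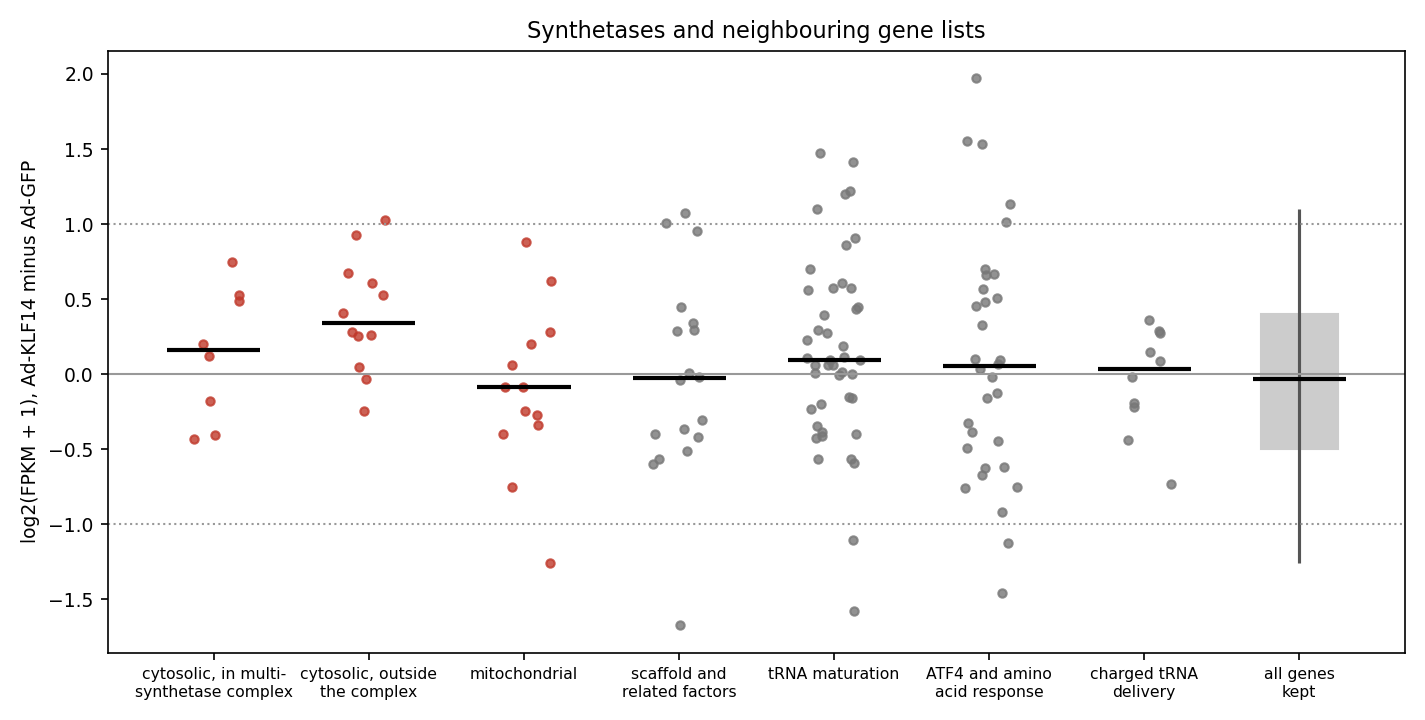
Difference in log2(FPKM + 1), Ad-KLF14 minus Ad-GFP, with 1 point per gene for synthetases (red) and related gene lists (grey), a black line for each median, and at the right all 12419 genes kept (box for the middle 50%, line from percentile 5 to 95). The medians are 0.16 and 0.34 for cytosolic genes in and outside the complex and −0.09 for mitochondrial genes, against −0.03 for all genes.

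The cytosolic synthetases were also set against genes of like level. All 20 had a mean above 30 FPKM, as had 3185 genes kept, a limit chosen after the levels were seen. Of these genes 4.46% passed 2-fold upward and 6.47% downward, 14.9% passed 1.5-fold upward and 16.4% downward, and their median was 0.02. Above 0 were 51.1% of them, and 15 of the 20 cytosolic genes. Among the 20 cytosolic genes 1 passed 2-fold upward and 0 downward, while 5 passed 1.5-fold upward and 0 downward. These counts describe 2 libraries, and no error of culture or animal can be put on them.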

How the data were processed

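RNA was extracted with Trizol and sequenced from TruSeq RNA libraries, per the labels' protocols. Bowtie 0.12.2 and the mouse build mm8 were used, per the submitters' processing notes. The series' design text also names BWA, TopHat and Cufflinks and speaks of retinal profiles in triplicate, which the labels do not mention. Gene models, counting rule, strand and pooling are not given in the sources used here. The authors deposited 1 FPKM value per gene and library.

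A difference is log2(FPKM + 1) of Ad-KLF14 less that of Ad-GFP, a scale on which low genes differ less than their ratios do. Ratios come from FPKM without the added 1. Genes averaging 1 FPKM or more were kept. With 1 library per group no test was made. A result was counted from 2-fold on, and 1.5-fold counts stand beside it.

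Reads were recovered as the smallest whole numbers that give the FPKM ratio of a gene (tolerance 1e-11), restoring a common divisor of up to 30 where it made the gene length whole. Totals were set so that gene lengths were whole and of plausible size, which 87.9% of 5986 well-read genes then had. Of the 33 implied member lengths, 13 lay within 1% of a GENCODE M21 transcript, so totals could still be off by a whole factor. Reads are lower limits where a divisor was missed, which makes intervals too wide. For Mars the reads were divided by 2, since the implied length exceeded every transcript. Intervals are 95% Clopper-Pearson, cover counting error only, and were tested on simulated data. The limit set by a count of 0, taken as 3 reads, is 0.135 FPKM with Ad-KLF14 and 0.133 FPKM with Ad-GFP for a length of 2000 bases.

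Overlaps between reference transcripts (100 bases or more, 95% identity or more) were found with blastn 2.17.0. Computation used Python 3.11.15, scipy 1.17.1 and pandas 2.3.3. Every member is named, as are up to 4 genes of each related list with the largest differences, the scaffold genes, Atf4, Asns and Ddit3. Qrsl1, Pet112l, Hars2, Rars2, Vars2 and genes that overlap a member were named after their values were seen. Some genes of the related lists are not reported here by name. Members and lists were chosen with earlier results of these data known. The 9 alternatives were pseudocounts of 0.1 and 5 FPKM, trimmed mean scaling (30% from each end), upper quartile scaling, a total without Klf14 reads, no filter, a minimum mean of 5 FPKM, removal of a running median over 501 genes, and a limit of 1.5-fold.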

Additional observations from a re-analysis of the deposited data

How the results depend on the processing

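The 1.5-fold limit gives no new log2 differences, and a minimum mean of 5 FPKM gives none for Mars2, Nars2, Pars2 and Wars2. In the alternatives that gave a value, 30 of the 33 members kept the sign of their log2 difference, and Sars, Ears2 and Pars2, all within 0.09 of 0, turned. The number of members at least 2-fold higher was 1 in the main setting. It was 2 with a pseudocount of 0.1 FPKM (Hars and Mars2), 0 with a pseudocount of 5 FPKM, and 0 with the running median removed, where Hars stood at 0.94. At 1.5-fold it was 7, and the number lower was 2. The number at least 2-fold lower stayed at 1 in all the others, with Iars2 between −1.32 and −1.05. The median of the cytosolic genes ran from 0.25 to 0.31. That of the mitochondrial genes ran from −0.25, with a minimum mean of 5 FPKM that leaves out 4 of them, to 0.01 with the running median removed, so its sign depends on the setting. No scaling moved the median of all genes by 0.1. No paired analysis was possible because each group has 1 library. Low recovered reads, which may be too low for Ears2 and Nars2, limit Ears2, Nars2, Pars2 and Sars2, and the lack of replicates limits every difference.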

Other observations

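The factors that carry charged transfer RNA to the ribosome had log2 differences with a standard deviation of 0.35. It was 0.42 for the cytosolic synthetases, 0.55 for the mitochondrial ones, 0.51 for all 33 and 0.74 for all genes kept. These groups were not matched by level, so the spreads are read no further. Of 10 carrier genes kept, 5 were above 0 (background 48.3%), none was 2-fold apart (background 6.37% higher and 8.99% lower), and the median was 0.03. Eef1a1, the main cytosolic carrier, stood at 3553 FPKM with Ad-KLF14 and 4811 FPKM with Ad-GFP (ratio 0.738, interval 0.731 to 0.746). Its mitochondrial counterpart Tufm was at 49.5 FPKM with Ad-KLF14 and 38.3 FPKM with Ad-GFP (ratio 1.29, interval 1.18 to 1.42). Tsfm, the exchange factor of Tufm, was at 12.3 FPKM with Ad-KLF14 and 21.1 FPKM with Ad-GFP (ratio 0.583, interval 0.477 to 0.710). Eif2s3x, a subunit of the initiation factor that brings the first methionyl-tRNA, had a ratio of 1.24 (interval 1.09 to 1.41).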
